A study of Homo sapiens with 33 samples.

Results

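Chemokine ligands are small secreted or membrane-anchored proteins that set up gradients along which leukocytes migrate. Members were all genes in the count table whose symbol begins with CCL, CXCL, CX3CL or XCL and a number, together with IL8 (the older symbol of CXCL8), which gave 43 of 29744 genes. The libraries came from 11 cell lines of high-grade serous ovarian carcinoma, 3 replicates each, in 4 families. OVCAR3 and OVCAR4 are established lines, and ResA and ResB of each are resistant lines that the study selected separately by repeated short exposure to cisplatin and did not keep in the drug. PEA1 and PEA2 came from one patient, and PEO1, PEO4 and PEO6 from another, in each case with PEA1 or PEO1 taken before clinical platinum resistance and the other lines after it. The study's text, not the sample labels, calls 4 lines sensitive (OVCAR3, OVCAR4, PEA1 and PEO1) and 7 resistant. No treatment at harvest was stated for any line, the PEA and PEO families shared a culture medium that differed from those of OVCAR3 and OVCAR4, and PEO4 and PEO6 were described as probably sharing a clone. Nothing stated that the 3 replicates of a line were separate cultures, so the p-values measure the spread between these libraries, which may be technical.

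The ligands fall into families by the spacing of their first cysteines. CXC ligands with a glutamate-leucine-arginine (ELR) motif bind CXCR1 or CXCR2 and attract neutrophils, whereas the interferon-inducible CXC ligands bind CXCR3 and attract activated T cells and natural killer cells. CC ligands attract monocytes, T cells, eosinophils or mucosal plasma cells, and CX3CL1 and CXCL16 are made as membrane proteins that can be shed. In epithelial and tumour cells many of these genes are transcribed in response to NF-kB, which the cytokines IL1A, IL1B and TNF activate, or to interferon.

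Library depth ran from 18058985 to 43394009 estimated counts with a median of 30611448. The share of counts on the mitochondrial ribosomal RNA genes ran from 1.12% to 14.8%, and it separated replicates within the OVCAR4 family. It was 5.18%, 14.8% and 12% in OVCAR4, 9.23%, 2.02% and 2.09% in OVCAR4 ResA, and 13.1%, 2.47% and 2.39% in OVCAR4 ResB (replicates 1 to 3). By the correlation of log2(TPM + 1) across genes 31 of the 33 libraries were nearest to a library of their own line, and the other 2, replicate 1 of OVCAR4 ResA and replicate 1 of OVCAR4 ResB, were nearest to each other. TPM is a level scaled for transcript length and library total and can be compared between genes, whereas fold changes were taken from counts with DESeq2. Of 9 leukocyte markers, CD3D, MS4A1 and NKG7 were at 0 in all libraries and the whole list summed to 1.71 to 57.6 TPM per library, with CD68 the highest of them. All 8 ovarian carcinoma markers reached 1 TPM in at least 1 line, although PEA1 had little of some epithelial ones. EPCAM was 14.0 TPM ± 1.20 (SD, n = 3) and KRT7 2.95 TPM ± 0.313 (SD, n = 3) in PEA1, against 575 TPM ± 36.5 and 1186 TPM ± 119 in PEA2.

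Promoter sequences are shown first for some of the ligands: the 6 ELR CXC ligands, CXCL11 and CCL20, which share a short motif, and CXCL14, which lacks it. Each run holds the 120 bases before the annotated start of transcription in the RefSeq table of GRCh38.p14, written 5′ to 3′ on the gene's strand. Capitals mark matches to GGNNNTTCC, a common form of the NF-kB motif, on either strand.
IL8, chr4:73740449-73740568, plus strand: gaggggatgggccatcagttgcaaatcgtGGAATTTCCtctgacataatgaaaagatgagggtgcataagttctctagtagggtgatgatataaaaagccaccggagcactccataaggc
CXCL1, chr4:73869273-73869392, plus strand: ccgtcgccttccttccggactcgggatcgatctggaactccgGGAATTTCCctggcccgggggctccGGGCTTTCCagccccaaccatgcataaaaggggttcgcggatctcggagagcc
CXCL2, chr4:74099196-74099315, minus strand: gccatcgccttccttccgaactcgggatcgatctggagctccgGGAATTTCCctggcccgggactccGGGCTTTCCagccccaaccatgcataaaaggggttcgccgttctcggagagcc
CXCL3, chr4:74038690-74038809, minus strand: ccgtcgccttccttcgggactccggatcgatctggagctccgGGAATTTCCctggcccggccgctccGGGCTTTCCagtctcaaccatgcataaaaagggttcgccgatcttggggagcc
CXCL5, chr4:73998678-73998797, minus strand: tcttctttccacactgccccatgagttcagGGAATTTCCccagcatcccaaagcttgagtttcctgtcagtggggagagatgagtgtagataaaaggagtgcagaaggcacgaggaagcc
CXCL6, chr4:73836558-73836677, plus strand: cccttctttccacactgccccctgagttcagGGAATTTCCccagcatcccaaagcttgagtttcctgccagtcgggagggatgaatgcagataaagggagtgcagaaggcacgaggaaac
CXCL11, chr4:76036071-76036190, minus strand: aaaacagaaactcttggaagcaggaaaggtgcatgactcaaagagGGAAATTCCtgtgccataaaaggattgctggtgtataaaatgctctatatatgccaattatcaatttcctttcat
CCL20, chr2:227813722-227813841, plus strand: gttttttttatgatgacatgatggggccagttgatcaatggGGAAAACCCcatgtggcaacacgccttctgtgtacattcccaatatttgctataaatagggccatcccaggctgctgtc
CXCL14, chr5:135578992-135579111, minus strand: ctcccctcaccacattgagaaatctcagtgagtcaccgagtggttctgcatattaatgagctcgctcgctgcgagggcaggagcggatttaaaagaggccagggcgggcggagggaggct
The motif was found in the 300-base window (250 bases before to 50 after the start) of 9 of the 14 well-expressed ligands that had a window, against 7042 of 35116 windows in the whole table (20.1%). All 6 ELR CXC ligands that met the symbol rule carried the same 9 letters, GGAATTTCC, beginning between 77 and 91 bases before the start. The run begins 91 bases before the start in IL8, 90 in CXCL5, 89 in CXCL6, 78 in CXCL1 and in CXCL3, and 77 in CXCL2. Those 9 letters, looked at after the sequences had been seen, occur on either strand in 162 of all windows (0.461%). CXCL10 and CXCL11 carried them on the other strand, as GGAAATTCC, 176 and 75 bases before the start. CCL20 held GGAAAACCC 79 bases before its start. No match lay in the windows of CCL26, CCL28, CXCL12, CXCL14 or CXCL17. Of these only CXCL14 is printed above, and CXCL10, with 3 matches, is not. No window was found for CCL2, CCL5, CX3CL1, CXCL16 or XCL1. A match says only that these letters are present.

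**Figure D1:**
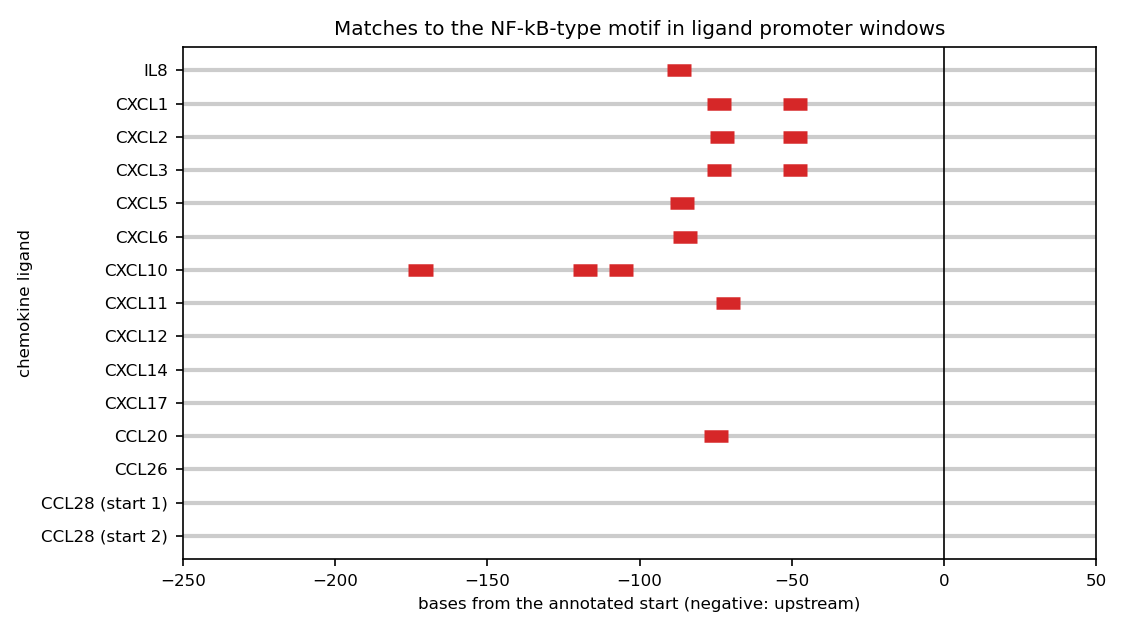
Position of each match to the motif GGNNNTTCC (either strand, red) in the 300-base promoter windows of 14 chemokine ligands, with distance in bases from the annotated start on the x axis. The 6 ELR CXC ligands, IL8 to CXCL6, hold a match between 77 and 91 bases before the start, and CXCL12, CXCL14, CXCL17, CCL26 and both starts of CCL28 hold none.

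Of the 43 ligands, 8 were at 0 in all 33 libraries: CCL1, CCL13, CCL14, CCL15, CCL18, CCL21, CCL23 and CCL4L1. A further 16 were counted but stayed under a mean of 1 TPM in every line, namely CCL3, CCL3L3, CCL4, CCL7, CCL8, CCL11, CCL16, CCL17, CCL19, CCL22, CCL24, CCL25, CCL27, CXCL9, CXCL13 and XCL2, and 8 of these had at most 3 counts over all libraries. The other 19 reached a mean of 1 TPM in at least 1 line and are described below by role. In all, 8 of the expressed ligands lie on chromosome 4, where the CXC ligands are clustered (10 ligands in the table), whereas 3 of the 16 ligands on chromosome 17, namely CCL2, CCL5 and CXCL16, were expressed at that level. That chromosome carries at least 6 of the 8 ligands that were never counted. CCL4L1, another of the 8, was given no position and is left out of these counts by chromosome. For a gene at 0, 3 counts per library is the level that a count of 0 still allows.

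PEA2 held far more chemokine RNA than any other line. The 43 ligands summed to 5839, 6261 and 5734 TPM in its 3 libraries, a mean of 5945 TPM ± 279 (SD, n = 3) or 0.594% of all TPM. The means of the other 10 lines ran from 72.0 TPM in PEO6 to 364 TPM in OVCAR4 ResA, so PEA2 did not overlap with them. The leading ligand also differed between lines. IL8 led in PEA2 (27.7% of the sum) and PEO1 (46.2%), CXCL1 in OVCAR3 ResA (61.7%), OVCAR3 ResB (43.2%), OVCAR4 ResA (38.0%) and PEA1 (40.3%), and CCL2 in OVCAR4 (71.6%) and OVCAR4 ResB (52.5%). CCL5 made up 60.5% of the sum in PEO4, and CCL28 led in OVCAR3 (33.9%) and PEO6 (25.3%). In 13 of the 19 expressed ligands every library of the highest line lay above all libraries of the other lines. The highest line was picked on these same values, and a ligand could enter the 19 through that line alone. The same count over all genes was not made, so this is not shown to be particular to the ligands.

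**Figure D2:**
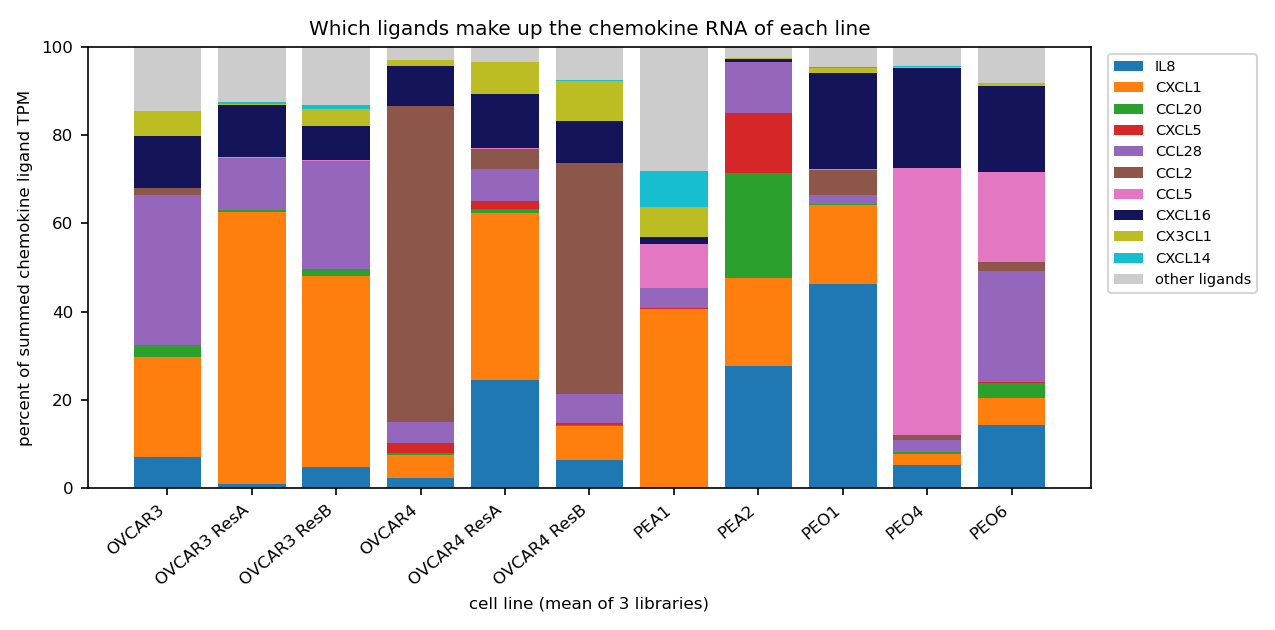
Share of the summed chemokine ligand TPM (y axis, percent, means of 3 libraries) held by 10 ligands and by all others in each of the 11 lines. CCL2 makes up 71.6% of the sum in OVCAR4, CCL5 60.5% in PEO4 and CXCL1 61.7% in OVCAR3 ResA.

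**Figure D3:**
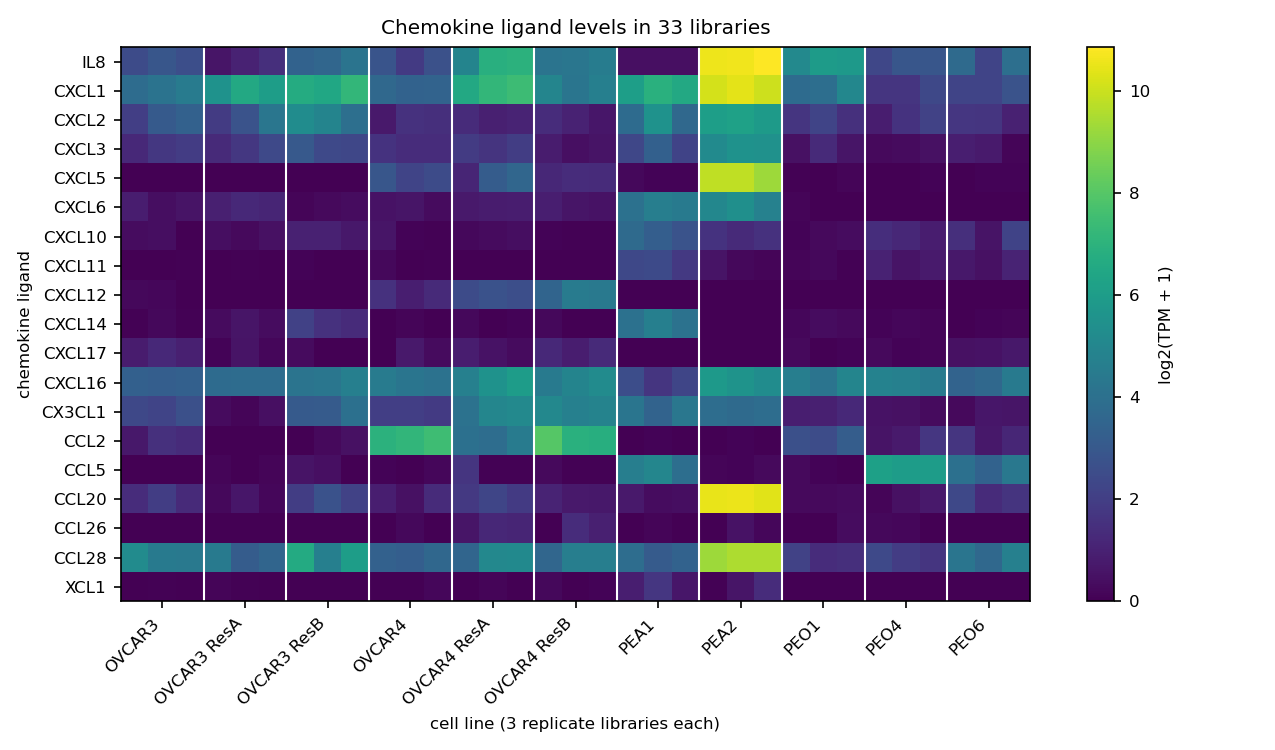
Level of the 19 expressed chemokine ligands in each library, as log2(TPM + 1), with the 3 replicates of each line side by side. The brightest cells are IL8, CXCL1, CXCL5, CCL20 and CCL28 in PEA2, and CXCL12 is seen in the OVCAR4 family.

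Each resistant line was set against the sensitive line of its family, and a ligand was called at an adjusted p-value under 0.05 over all genes. Among 301 combinations of 43 ligands and 7 pairs, 104 had an adjusted p and 56 were called, 32 higher and 24 lower in the resistant line. Counts of ligands are given beside the share of all tested genes called in the same comparison. In OVCAR3 ResA 2 ligands were higher and 6 lower of 15 tested (all genes, 22.0% higher and 22.9% lower, 44.9% in all), and in OVCAR3 ResB 5 were higher and 0 lower of 14 (all genes, 4.10% higher and 3.57% lower, 7.67% in all). In OVCAR4 ResA 4 were higher and 1 lower of 14 (all genes, 6.68% higher and 5.22% lower, 11.9% in all), and in OVCAR4 ResB 3 were higher and 2 lower of 14 (all genes, 9.09% higher and 8.77% lower, 17.9% in all). PEA2 had 10 higher and 4 lower of 17 tested ligands (all genes, 23.3% higher and 23.8% lower, 47.0% in all). PEO4 had 3 higher and 5 lower of 15 (all genes, 16.6% higher and 16.7% lower, 33.3% in all), and PEO6 had 5 higher and 6 lower of 15 (all genes, 21.2% higher and 20.3% lower, 41.4% in all). Over those with an adjusted p, the share of ligands called was above that of all genes in each pair, a gap that was not tested. In OVCAR3 ResA the shares were near, with 8 of 15 ligands against 44.9% of all genes. There the 2 ligands higher of 15 fell below the 22.0% of all genes. The 3 comparisons of resistant lines within a family called 6 higher and 0 lower of 11 in OVCAR3 ResB against ResA (all genes, 7.47% higher and 6.04% lower, 13.5% in all), 2 higher and 6 lower of 16 in OVCAR4 ResB against ResA (all genes, 16.2% higher and 16.5% lower, 32.8% in all), and 2 higher and 2 lower of 13 in PEO6 against PEO4 (all genes, 9.86% higher and 8.33% lower, 18.2% in all). Ligands with an adjusted p are those with enough counts, so these shares do not cover all 43.

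Some ligands moved in opposite directions in different families. In total 12 ligands were called higher in one pair and lower in another, and none was called one way in more than 4 pairs. The share of all genes with such opposite calls was not counted. Across the 7 pairs 7.67% to 47.0% of all genes were called, with near-equal shares higher and lower. The 12 are therefore not shown to be particular to the ligands. CXCL1 came closest to a common rise, higher in 4 pairs and lower in 2, and CCL2 was lower in 4 pairs and higher in none. Pairs of one family share the libraries of their sensitive line and are not independent.

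**Figure D4:**
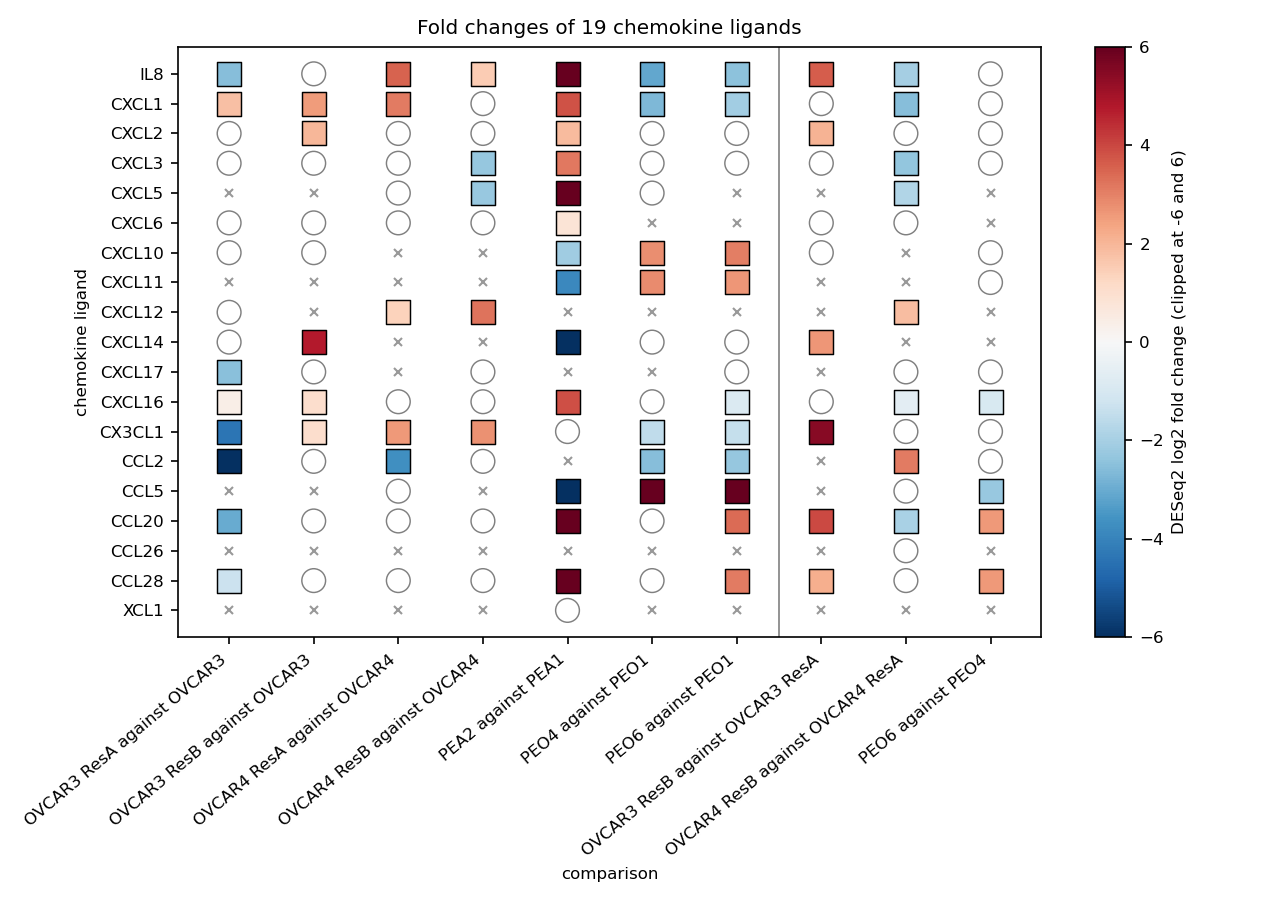
DESeq2 log2 fold change of 19 chemokine ligands (rows) in the 7 resistant against sensitive pairs and, right of the line, 3 comparisons between resistant lines of a family. Filled squares are called, open circles are tested and not called, and crosses have no adjusted p, and colour is clipped at −6 and 6. IL8 is called higher in 3 pairs and lower in 3, and CCL2 lower in 4.

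The 6 ELR CXC ligands that met the symbol rule, which attract neutrophils, were all called higher in PEA2 than in PEA1. Their median log2 fold change was 3.49 (over all tested genes, −0.02). A list of 3 platelet CXC ligands with other symbols did not meet the rule, so the 6 are not shown to be the whole class. Of those 3, all tested, 1 was higher in PEA2 and 0 lower, with a median log2 fold change of −0.86 (all genes, 23.3% higher and 23.8% lower). IL8, the best known neutrophil attractant, was at 0.355, 0.353 and 0.363 TPM in PEA1 and at 1542, 1552 and 1848 TPM in PEA2. Its log2 fold change of 12.27 ± 0.36 (SE) had an adjusted p of 1.14e-257. CXCL5 went from 0.192, 0.0864 and 0.0905 TPM to 894, 908 and 618 TPM (log2 fold change 12.79 ± 0.45, adjusted p = 1.65e-177). The groups did not overlap for any of the 6. The share of all genes without overlap was not counted, so this is not shown to be particular to these ligands. CXCL1 was already high in PEA1, at 67.5, 116 and 91.4 TPM, and stood at 1148, 1375 and 1041 TPM in PEA2 (log2 fold change 3.84 ± 0.24, adjusted p = 9.84e-57). CXCL3 rose by 3.15 (adjusted p = 5.31e-18), CXCL2 by 1.91 (adjusted p = 1.31e-06) and CXCL6 by 0.80 (adjusted p = 0.00388) on the log2 scale. CXCL2 was 45.8 TPM in PEA1 replicate 2 against 13.1 and 11.6 TPM in the other replicates, and its call was lost without the replicate block (adjusted p = 0.0877). The call of CXCL6 was lost without replicate 1 (adjusted p = 0.25). Of the 8 ovarian carcinoma markers 6 were also higher in PEA2 (all genes, 23.3% higher and 47.0% in all). Of 7 endothelial and fibroblast markers 5 were tested, with 2 higher and 2 lower (all genes, 23.3% higher and 23.8% lower). COL1A1, on that list, was 88.4 TPM ± 20.3 (SD, n = 3) in PEA1 and 0.879 TPM ± 0.254 (SD, n = 3) in PEA2. Leukocyte markers summed to more in PEA2 as well, with 3 of the 4 tested of 9 called higher (all genes, 23.3% higher). In PEA2 PTPRC was at 3.30 TPM and CD3D, MS4A1 and NKG7 were at 0. The part of these markers in the ligand changes was not tested, and fewer cells of a type and less RNA per cell cannot be told apart in bulk RNA.

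The PEO family went the other way for IL8 and CXCL1. IL8 was 33.7, 60.7 and 55.9 TPM in PEO1, 3.92, 6.55 and 6.46 TPM in PEO4, and 12.4, 3.64 and 14.7 TPM in PEO6. It fell by 3.11 on the log2 scale in PEO4 (adjusted p = 6.11e-48) and by 2.45 in PEO6 (adjusted p = 0.00737, and 0.0701 without replicate 3). CXCL1 stood at 12.8, 14.3 and 31.5 TPM in PEO1, at 2.15, 2.17 and 4.18 TPM in PEO4, and at 3.68, 3.68 and 5.83 TPM in PEO6. No PEO4 or PEO6 library reached the lowest of PEO1 for either gene. CXCL1 fell by 2.70 (adjusted p = 6.87e-20) and 2.08 (adjusted p = 2.25e-09) on the log2 scale. None of the other 4 ELR ligands was called in either pair. CXCL6 had 2 counts in 1 PEO1 library and 0 in PEO4 and PEO6, and no adjusted p in either pair.

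In the OVCAR3 and OVCAR4 families CXCL1 was higher in 3 of the 4 resistant lines. It was 13.2, 16.7 and 21.9 TPM in OVCAR3, 44.8, 93.0 and 64.0 TPM in ResA, and 102, 86.2 and 144 TPM in ResB, with log2 fold changes of 1.79 ± 0.17 (adjusted p = 3.47e-24) and 2.58 ± 0.35 (adjusted p = 3.13e-11). In OVCAR4 it was 11.9, 9.71 and 10.1 TPM, against 93.8, 146 and 175 TPM in ResA (log2 fold change 3.13 ± 0.31, adjusted p = 2.43e-21). OVCAR4 ResB, at 29.6, 17.5 and 25.1 TPM, was not called (log2 fold change 0.58 ± 0.42, adjusted p = 0.376), and ResB was lower than ResA (log2 fold change −2.56 ± 0.47, adjusted p = 5.14e-07). CXCL1 thus separated the 2 resistant lines of OVCAR4 but not those of OVCAR3, where ResB against ResA gave 0.78 ± 0.36 (adjusted p = 0.137).

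IL8 did separate the resistant lines of OVCAR3. It was 4.58, 6.5 and 5.08 TPM in OVCAR3, 0.524, 1.02 and 1.77 TPM in ResA, and 9.51, 10.9 and 17 TPM in ResB. IL8 fell by 2.53 on the log2 scale in ResA (adjusted p = 5.39e-11), was not called in ResB (log2 fold change 1.08 ± 0.38, adjusted p = 0.059), and was higher in ResB than in ResA by 3.62 ± 0.47 (adjusted p = 1.49e-12). In the OVCAR4 family IL8 rose from 6.08, 2.57 and 5.38 TPM to 29.0, 114 and 124 TPM in ResA (log2 fold change 3.56 ± 0.47, adjusted p = 1.01e-11) and to 16.9, 18.2 and 22.2 TPM in ResB (1.54 ± 0.37, adjusted p = 0.000617). The lowest ResA library was replicate 1, which also had the highest mitochondrial rRNA share of that line. Replicate 1 of ResA was lowest for CXCL1, CX3CL1 and CXCL5 as well, but not for CCL2. In ResB replicate 1 likewise had the highest share, and there CXCL12 was lowest and CCL2 highest. The part of the mitochondrial rRNA share in these levels was not tested. With edgeR the ResA call was lost (adjusted p = 0.052), and the ResB call was lost without replicate 2 (adjusted p = 0.186) or 3 (0.117). ResB was lower than ResA by 2.03 ± 0.61 (adjusted p = 0.00387), a call that was lost without replicate 3 (adjusted p = 0.182).

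**Figure D5:**
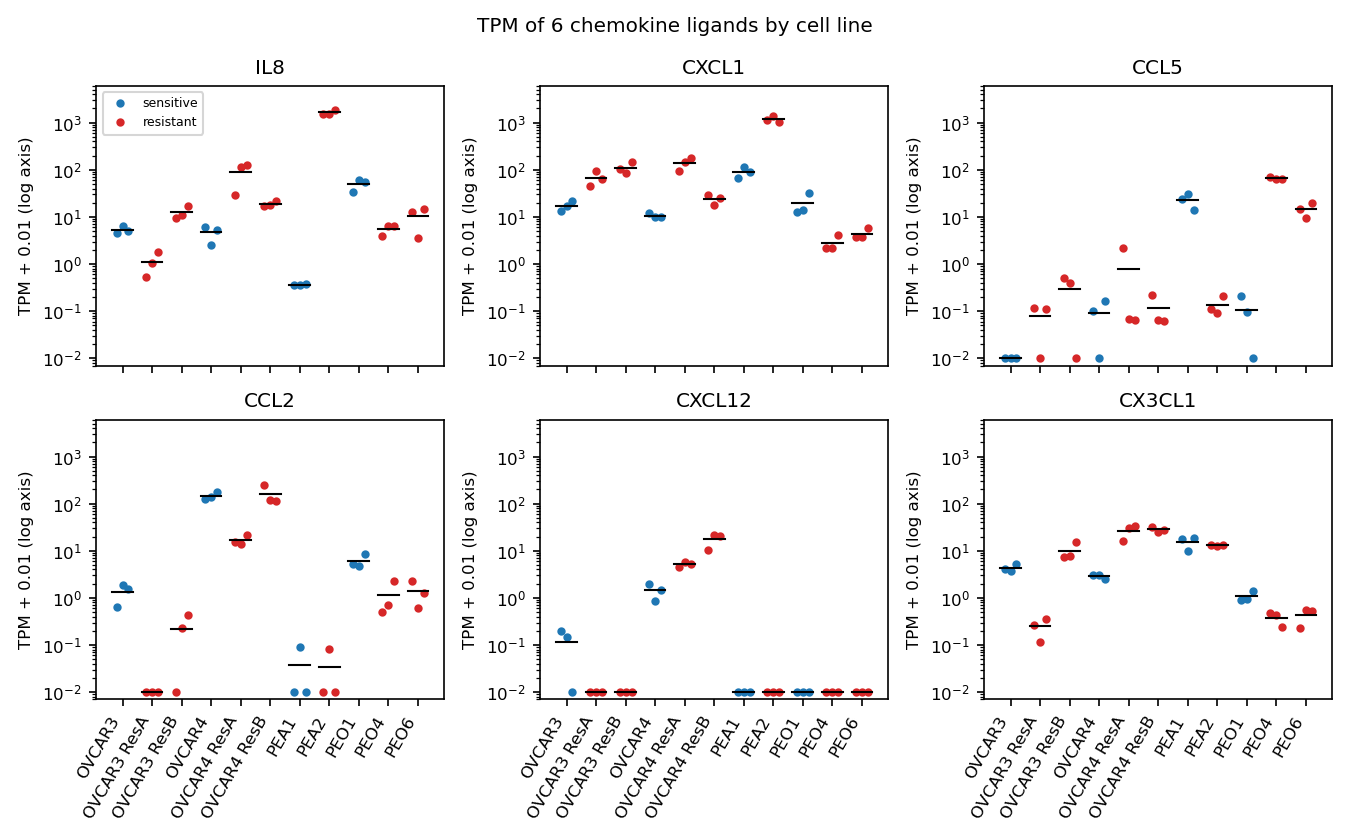
TPM + 0.01 on a log axis for 6 chemokine ligands in every library of the 11 lines (points, blue for lines called sensitive and red for resistant) with the mean of each line as a bar. IL8 runs from 0.353 TPM in a PEA1 library to 1848 TPM in a PEA2 library, and CXCL12 is at 0 in PEA1, PEA2, PEO1, PEO4 and PEO6.

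The remaining ELR ligands moved in fewer pairs of these families. CXCL2, at 3.06, 7.41 and 9.43 TPM in OVCAR3 and 37.9, 28.7 and 14.5 TPM in ResB, was called higher there (log2 fold change 1.98 ± 0.55, adjusted p = 0.00583). The call was lost without replicate 1 (adjusted p = 0.533), without replicate 2 (0.292) and with edgeR (0.196). CXCL2 was also higher in OVCAR3 ResB than in ResA (2.09 ± 0.63, adjusted p = 0.00997), with overlapping TPM values, a call that was lost without replicate 1 (0.635) or 2 (0.479) and without the replicate block (0.0648). In OVCAR4 ResB CXCL5 fell by 2.28 on the log2 scale, from 6.46, 3.71 and 4.53 TPM to 1.31, 1.59 and 1.5 TPM (adjusted p = 6.43e-07). CXCL3 fell there by 2.33, from 1.97, 1.60 and 1.62 TPM to 0.751, 0.350 and 0.491 TPM (adjusted p = 0.0266), a call lost without replicate 2 (0.563) or 3 (0.556) and with edgeR (0.0657). Both were also called lower in OVCAR4 ResB than in ResA, CXCL5 by 1.81 (adjusted p = 0.00454) and CXCL3 by 2.36 (adjusted p = 0.00127) on the log2 scale. The groups overlapped for CXCL5, since ResA replicate 1, at 1.17 TPM, lay below every ResB library. The other ResA libraries lay above them. Both calls were lost without replicate 2 (adjusted p = 0.187 for CXCL5 and 0.17 for CXCL3) or 3 (0.304 and 0.123). That of CXCL5 was also lost with the filter of 10 counts and with limma on log2(TPM + 1). CXCL1, CXCL2 and CXCL3 are near-identical copies, and in 22, 22 and 10 of the 33 libraries their estimated counts were not whole, as when reads are shared out between genes. Summed before the fit, the copies together were higher in PEA2 (log2 fold change 3.59, adjusted p = 1.21e-42), OVCAR3 ResA (1.44, adjusted p = 2.75e-22), OVCAR3 ResB (2.39, adjusted p = 9.06e-09) and OVCAR4 ResA (2.79, adjusted p = 1.42e-17). The sum is mostly CXCL1, which was called higher in each of these lines, so it cannot check the calls of CXCL2 or CXCL3.

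The interferon-inducible ligands CXCL10 and CXCL11, which draw CXCR3-bearing T cells, fell in PEA2 and rose in both resistant PEO lines. CXCL10 was 12.4, 8.48 and 5.85 TPM in PEA1 and 2.05, 1.44 and 1.95 TPM in PEA2, a fall by 2.14 on the log2 scale (adjusted p = 4.58e-06, and 0.0556 without replicate 1). CXCL11 fell by 3.87, from 4.13, 4.41 and 2.52 TPM to 0.498, 0.181 and 0.110 TPM (adjusted p = 2.18e-09). PEA1 was the highest line for both. In PEO1 CXCL10 stood at 0.0662, 0.216 and 0.276 TPM, against 1.71, 1.33 and 0.818 TPM in PEO4 (log2 fold change 2.80 ± 0.91, adjusted p = 0.00851) and 1.79, 0.489 and 3.52 TPM in PEO6 (3.07 ± 0.93, adjusted p = 0.00367). CXCL11 was 2.84 ± 1.02 (adjusted p = 0.0195) and 2.67 ± 1.14 (adjusted p = 0.0466) higher on the log2 scale, from a PEO1 mean of 0.109 TPM ± 0.0754 (SD, n = 3). The groups did not overlap, but the counts were low. The CXCL10 calls were lost without replicate 1 (adjusted p = 0.323 in PEO4 and 0.187 in PEO6), without replicate 2 in PEO4 (0.128) and without replicate 3 in PEO6 (0.168). Those of CXCL11 were lost without any 1 of the 3 replicates, with adjusted p of 0.313, 0.0592 and 0.202 in PEO4 and 0.275, 0.104 and 0.452 in PEO6. CXCL9, the third ligand of CXCR3, had 21 counts over all libraries. Among the pairs it had an adjusted p in PEA2 alone, where it was not called (adjusted p = 0.095).

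CXCL12, the ligand of CXCR4 that retains stem cells and lymphocytes in tissue, was a ligand of the OVCAR4 family. Its 3 libraries gave 1.95, 0.858 and 1.47 TPM in OVCAR4, 4.50, 5.74 and 5.17 TPM in ResA, and 10.2, 22 and 20.1 TPM in ResB. Outside that family CXCL12 was counted in 2 libraries of OVCAR3 alone. The levels of the 3 lines did not overlap. CXCL12 was higher in ResB than in OVCAR4 (log2 fold change 3.24 ± 0.42, adjusted p = 1.68e-12) and than in ResA (1.87 ± 0.18, adjusted p = 3.51e-23). The rise in ResA (1.39 ± 0.48, adjusted p = 0.0366) was lost without replicate 2 (adjusted p = 0.729) or 3 (0.704) and with edgeR (0.119). In 1 fit over all 33 libraries the log2 fold changes stayed near these values, but none of the 3 was called (adjusted p = 0.746 for ResA, 0.355 for ResB and 0.76 between them).

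CXCL14, a ligand made by many epithelia, was lost in PEA2. It was 15.6, 24.7 and 16.2 TPM in PEA1 and 0 in all PEA2 libraries, where the 1888 counts of PEA1 put it at least 233-fold lower against a floor of 3 counts per library (adjusted p = 1.71e-20). In OVCAR3 it rose from 0.0503, 0.181 and 0.0364 TPM to 3.23, 1.96 and 1.53 TPM in ResB (log2 fold change 4.75 ± 0.88, adjusted p = 4.26e-06), and it was higher in ResB than in ResA (2.64 ± 0.69, adjusted p = 0.00187, lost without replicate 1 at 0.28 or 2 at 0.12). CXCL17, a mucosal ligand, hardly passed 1 TPM, in OVCAR3 (1.04 TPM ± 0.325, SD, n = 3) and OVCAR4 ResB (1.22 TPM ± 0.323, SD, n = 3). It fell by 2.52 on the log2 scale in OVCAR3 ResA (adjusted p = 0.038), a call that was lost without any 1 replicate (adjusted p between 0.199 and 0.291). CXCL13 had no adjusted p in any of the 7 pairs.

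The membrane-anchored ligands differed from each other. CXCL16, the ligand of CXCR6, was between 2.16 and 62.7 TPM, and with CXCL1 and CCL28 it was 1 of 3 ligands above 1 TPM in every library. It rose clearly in PEA2, from 4.88, 2.16 and 3.79 TPM to 56.5, 46.4 and 38.0 TPM (log2 fold change 3.87 ± 0.26, adjusted p = 5.48e-48). Its other calls were small. CXCL16 was higher in OVCAR3 ResA (0.41 ± 0.16, adjusted p = 0.0271) and ResB (1.06 ± 0.34, adjusted p = 0.0311), and lower in PEO6 (−0.87 ± 0.24, adjusted p = 0.00153), where the TPM values of the groups overlapped. The call in OVCAR3 ResA was lost without the replicate block (adjusted p = 0.0793), although the replicate numbers pair these libraries, and without any 1 replicate (0.192 to 0.222). That in ResB was lost without replicate 1 (0.291) or 2 (0.694) and with edgeR (0.0898), and that in PEO6 without replicate 1 (0.0592) or 2 (0.0546). Between resistant lines CXCL16 was lower in OVCAR4 ResB than in ResA (−0.61 ± 0.16, adjusted p = 0.000723), which was not called without the block (0.193), replicate 2 (0.131) or replicate 3 (0.0955). It was also lower in PEO6 than in PEO4 (−0.98 ± 0.33, adjusted p = 0.0207), not called without replicate 1 (0.349) or 2 (0.528) or with edgeR (0.0641).

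CX3CL1, or fractalkine, which binds CX3CR1 on monocytes and natural killer cells, rose in both resistant lines of OVCAR4. It was 3.04, 3.01 and 2.55 TPM in OVCAR4, 16.1, 30.7 and 33.1 TPM in ResA (log2 fold change 2.62 ± 0.33, adjusted p = 4.13e-13) and 32.2, 25.6 and 27.6 TPM in ResB (2.75 ± 0.38, adjusted p = 2.22e-11). The resistant lines of OVCAR3 went apart. CX3CL1 was 4.12, 3.72 and 5.19 TPM in OVCAR3 and 0.260, 0.106 and 0.347 TPM in ResA, where it fell by 4.38 on the log2 scale (adjusted p = 4.27e-32), and it stood at 7.48, 7.55 and 15.3 TPM in ResB (1.03 ± 0.36, adjusted p = 0.0479). The ResB call was lost without replicate 1 (adjusted p = 0.323) or 2 (0.709) and with edgeR (0.0959), whereas ResB against ResA gave 5.44 ± 0.49 (adjusted p = 1.51e-26). In PEO4 and PEO6 CX3CL1 was lower by 1.52 (adjusted p = 0.0132) and 1.42 (adjusted p = 0.0259) on the log2 scale, from a PEO1 mean of 1.08 TPM. Both were lost without any 1 replicate (adjusted p between 0.106 and 0.202 in PEO4 and between 0.174 and 0.263 in PEO6). In PEA2 it was not called (log2 fold change −0.06 ± 0.25, adjusted p = 0.855).

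Among the inflammatory CC ligands, CCL2 and CCL5 were the only 2 above 10 TPM in any line. CCL2, which recruits monocytes through CCR2, was 125, 139 and 175 TPM in OVCAR4 and 15.0, 13.7 and 22.1 TPM in ResA, a fall by 3.67 on the log2 scale (adjusted p = 3.44e-22). OVCAR4 ResB kept it at 253, 117 and 112 TPM (log2 fold change −0.59 ± 0.50, adjusted p = 0.472), 3.11 ± 0.52 above ResA on the log2 scale (adjusted p = 2.66e-08). The 2 resistant lines of OVCAR4 thus differed in their main CC ligand as well as in CXCL1. In OVCAR3 CCL2 was 0.620, 1.88 and 1.53 TPM and in ResA it was 0 in every library, at least 5.11-fold lower against the floor of 3 counts per library (adjusted p = 0.000207). PEO1 had 5.33, 4.79 and 8.32 TPM, PEO4 0.495, 0.705 and 2.25 TPM, and PEO6 2.23, 0.604 and 1.26 TPM. CCL2 fell there by 2.56 (adjusted p = 7.89e-05) and 2.30 (adjusted p = 0.000979) on the log2 scale, the second call being lost without replicate 2 (adjusted p = 0.111) or 3 (0.0802). CCL7, a neighbour of CCL2 in the same monocyte-attracting group, had 33 counts in PEO1 and 0 in PEO4 and PEO6. That is at least 3.23-fold (adjusted p = 0.00918) and 3.73-fold (adjusted p = 0.00746) lower. These calls were lost without replicate 1 (adjusted p = 0.057) or 3 (0.177) in PEO4 and without replicate 2 (0.115) in PEO6, and CCL7 was picked out after its values were seen, as was CCL22 below.

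CCL5, which attracts T cells and monocytes and is induced late after T-cell activation, also moved in opposite directions in 2 families. It was 0.196, 0.0853 and 0 TPM in PEO1, 70.8, 63.2 and 63.3 TPM in PEO4, and 15.0, 9.51 and 19.6 TPM in PEO6. The log2 fold changes were 9.71 ± 1.05 (adjusted p = 9.85e-19) and 7.33 ± 0.77 (adjusted p = 5.16e-20), and PEO6 was lower than PEO4 by 2.27 ± 0.32 (adjusted p = 6.18e-11, but 0.11 in 1 fit over all 33 libraries). PEA2 went the other way, from 23.6, 30.2 and 14.0 TPM in PEA1 to 0.104, 0.0814 and 0.197 TPM, a fall by 7.35 on the log2 scale (adjusted p = 7.42e-28). In the OVCAR3 and OVCAR4 families 1 library of OVCAR4 ResA reached 2.20 TPM and all others were under 0.5 TPM, with no call. CCL26, an eosinophil attractant, had its highest mean in OVCAR4 ResA at 1.02 TPM ± 0.411 (SD, n = 3). It had 22 counts there against 1 in OVCAR4, with a 95% counting interval of the ratio from 3.10 to 791. CCL26 had no adjusted p in any of the 7 pairs, and OVCAR4 ResB against ResA was not called (adjusted p = 0.633).

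CCL20 and CCL28, which bind CCR6 and CCR10 and guard mucosal surfaces, rose together in PEA2 and in PEO6. CCL20 was 0.658, 0.287 and 0.309 TPM in PEA1 and 1433, 1483 and 1315 TPM in PEA2 (log2 fold change 11.82 ± 0.45, adjusted p = 9.26e-148). CCL28 was 13.7, 7.77 and 9.54 TPM in PEA1 and 615, 722 and 727 TPM in PEA2 (6.20 ± 0.27, adjusted p = 7.11e-115). No library of another line came near, since the next highest line mean was 354-fold lower for CCL20 and 11-fold lower for CCL28. In PEO6 CCL20 was at 4.06, 1.51 and 2.11 TPM against 0.205, 0.200 and 0.258 TPM in PEO1 (3.38 ± 0.93, adjusted p = 0.00125, and 0.18 without replicate 1), and CCL28 at 17.5, 11.7 and 25.4 TPM against 3.42, 1.56 and 1.80 TPM (3.12 ± 0.38, adjusted p = 3.19e-15). PEO4 was not called for either, and PEO6 lay above PEO4 by 2.58 ± 0.42 for CCL28 (adjusted p = 2.64e-08) and by 2.61 ± 0.97 for CCL20 (adjusted p = 0.0411, lost without replicate 1 at 0.681 or 2 at 0.268 and with edgeR at 0.0787).

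In OVCAR3 ResA both mucosal ligands fell. CCL20 went from 1.61, 2.97 and 1.42 TPM to 0.171, 0.554 and 0.155 TPM, a fall by 3.04 on the log2 scale (adjusted p = 0.000951, lost without replicate 1 at 0.0588 or 2 at 0.06). CCL28 was 37.2, 20.4 and 19.8 TPM in OVCAR3 and 20.7, 7.83 and 10.6 TPM in ResA, which overlapped as groups but differed within each replicate number, a fall by 1.31 (adjusted p = 4.4e-09). OVCAR3 ResB, at 98.3, 24.5 and 65.5 TPM of CCL28, was above ResA by 2.19 ± 0.36 (adjusted p = 7.12e-08), as it was for CCL20 (3.98 ± 0.87, adjusted p = 0.000104, and 0.112 without replicate 2). CCL20 was lower in OVCAR4 ResB than in ResA by 1.95 ± 0.70 (adjusted p = 0.0202, lost without replicate 2 at 0.491 or 3 at 0.254). CCL22, a ligand of CCR4, stayed under 1 TPM, and was higher in PEA2, with 56 counts against 1, with a 95% counting interval of the ratio from 8.61 to 2008 (adjusted p = 0.00119, and 0.173 without replicate 1). The lymphotactin gene XCL1 reached a mean of 1 TPM in PEA1 alone, at 0.887, 2.26 and 0.581 TPM, and was not called in PEA2 (adjusted p = 0.217). Its near-identical copy XCL2 had counts in 3 libraries.

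Taking the line as the unit, with counts summed over replicates and the family as a term, no ligand was called between the 7 resistant and the 4 sensitive lines. That was 0 of 33 tested ligands (all genes, 0.130% higher and 0.156% lower, 0.286% in all), with 3 at an unadjusted p under 0.05, namely CCL2, CCL5 and CXCL11, and edgeR also called 0, with 1 at an unadjusted p under 0.05. CCL2 had the lowest adjusted p, 0.367. A single ligand passed when the OVCAR4 family (CCL7, lower, adjusted p = 8.32e-06), the PEO family (CXCL1, higher, adjusted p = 0.0051) or replicate 1 (CCL7, lower, adjusted p = 3.26e-07) was left out. CCL7 had 33 counts in PEO1, 1 in OVCAR4 ResB and 0 in the other lines, and its fitted log2 fold changes of −21.27 and −21.00 in those fits have no finite base, so these 2 calls rest on 1 line and show no difference over lines.

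Receptors for these ligands were sparse. Among 18 chemokine receptors, 3 reached 1 TPM in a line, and the list summed to 0.215 to 4.75 TPM per library. CCR1 stood at 1.04 TPM ± 0.507 (SD, n = 3) and CCR8 at 1.80 TPM ± 0.824 (SD, n = 3) in OVCAR3 ResB, and CXCR4 at 1.64 TPM ± 0.543 (SD, n = 3) in PEO6. CCR8 was higher in OVCAR3 ResB than in OVCAR3 (log2 fold change 3.73, adjusted p = 0.0056), CCR1 was lower in ResA (−2.43, adjusted p = 0.00328), CCR6, the receptor of CCL20, was higher there at 0.446 TPM against 0.0853 TPM (2.18, adjusted p = 0.0146), and CXCR4 was higher in PEO6 than in PEO4 (2.07, adjusted p = 0.035). Atypical receptors take up ligands without signalling through G proteins. Of 5 in the list, 2 reached 1 TPM in a line, and the list summed to 0.262 to 41.2 TPM per library. ACKR2, which degrades inflammatory CC ligands, had means of 6.74 to 25.0 TPM in the OVCAR3 family, fell by 1.36 on the log2 scale in OVCAR3 ResA (adjusted p = 8.49e-17) and rose in OVCAR4 ResB (log2 fold change 3.26, adjusted p = 1.63e-13), OVCAR4 ResA (1.46, adjusted p = 0.0399) and PEA2 (6.66, adjusted p = 8.42e-25). ACKR3, which takes up CXCL12, rose in OVCAR3 ResA (4.40, adjusted p = 1.76e-07) and ResB (2.74, adjusted p = 0.00449) and fell by 5.02 on the log2 scale in OVCAR4 ResB (adjusted p = 0.00816), the line with the highest CXCL12, and by 3.47 in PEA2 (adjusted p = 0.0297). CCRL2 had a mean of 0.365 TPM in PEA2 and 0 in the PEA1 libraries (adjusted p = 0.00682).

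Among inducers of chemokine transcription, 7 of 8 tested (9 in the list) were higher in PEA2 and none lower (all genes, 23.3% higher and 47.0% in all). IL1A was at 440 TPM ± 25.8 (SD, n = 3) and IL1B at 268 TPM ± 22.6 (SD, n = 3) in PEA2, and both were under 0.1 TPM on average in PEA1 (log2 fold changes 12.80, adjusted p = 2.32e-125, and 14.25, adjusted p = 1.36e-30). TNF reached 24.1 TPM ± 4.10 (SD, n = 3) there (6.70, adjusted p = 2.94e-47). IL1B was also higher in OVCAR4 ResB (3.66, adjusted p = 0.000502). IL6, which many tumour cells secrete, rose in OVCAR3 ResB (2.03), OVCAR4 ResA (1.93), OVCAR4 ResB (3.82), PEA2 (1.33) and PEO4 (1.85), with adjusted p of 0.00424, 0.0242, 1.98e-10, 0.000153 and 0.000401. TNF rose in OVCAR3 ResB (3.93, adjusted p = 7.63e-08) and fell in OVCAR4 ResB by 2.35 (adjusted p = 0.00142) and in PEO6 by 2.09 (adjusted p = 0.00936). IL18 rose in PEA2 (2.31, adjusted p = 6.79e-17), OVCAR3 ResA (0.89, adjusted p = 6.86e-07) and ResB (1.87, adjusted p = 7.55e-07), and fell in OVCAR4 ResB by 0.90 (adjusted p = 0.0257), in PEO4 by 1.23 (adjusted p = 2.23e-08) and in PEO6 by 2.17 (adjusted p = 6.5e-18). IL17C reached 1 TPM in PEA2 alone, at 1.52 TPM. Of 12 NF-kB and interferon signal genes, all tested in every pair, 4 were higher and 3 lower in PEA2, with a median log2 fold change of 0.10, where 47.0% of all genes were called. In OVCAR3 ResA 2 were higher and 5 lower (44.9% of all genes called), and in PEO4 5 were higher and 2 lower (33.3% of all genes called). Of the 3 proteases and sheddases that act on chemokines, ADAM17 was higher in PEA2 (1.34, adjusted p = 8.93e-06) and lower in PEO6 (−0.65, adjusted p = 0.0309), ADAM10 was higher in OVCAR3 ResA (0.36, adjusted p = 0.00103) and lower in PEA2 (−0.55, adjusted p = 0.047), and DPP4, which trims CXCL10 and CXCL12, was higher in OVCAR4 ResB (4.91, adjusted p = 0.000212) and PEO4 (2.54, adjusted p = 3.64e-12) and lower in both resistant lines of OVCAR3 (−2.89, adjusted p = 8.63e-08, and −2.80, adjusted p = 0.0022).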

How the data were processed

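RNA was sequenced from 33 libraries (11 lines, 3 replicates each, mRNA libraries). The authors deposited estimated counts per gene and TPM per gene; per the study's methods these came from nf-core/rnaseq with salmon on GRCh38, while the submitters' processing notes also name DRAGEN. Whether counting used strand is not given in the sources used here. These deposited count values were rounded to whole numbers and fitted for each comparison on its 6 libraries with DESeq2 1.42.0 (R 4.3.3, Wald test, line and replicate number as terms, no filter), with Benjamini-Hochberg adjustment over all genes and a threshold of 0.05. Differences between pair effects and a fit with the line as unit were also made with DESeq2. TPM values, as deposited, gave levels. Some of these fits, but not every alternative named next, were checked on simulated counts, and the outcome is not given here. Alternatives were edgeR 4.0.16, limma 3.58.1 on log2(TPM + 1) after a filter and on log2(TPM + 0.1), TMM scaling, a filter of 10 counts in 3 libraries, 1 fit over 33 libraries, no replicate block, and leaving out each replicate or family.

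Ligands were named where the mean reached 1 TPM in at least 1 line. The members, roles and gene lists were chosen with earlier results of these data known. Replicate numbers paired the libraries in OVCAR3 ResA against OVCAR3 (correlations of deviations 0.879, 0.415 and 0.777) and OVCAR4 ResB against ResA (0.921, 0.885 and 0.782), and in no other comparison. Counting intervals and floors cover counting error only.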

Additional observations from a re-analysis of the deposited data

Results flagged for a closer look

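For 12 ligands the resistant-sensitive change was called in opposite directions in 2 families. The share of all genes with such calls was not counted. The gap between the pair effects is given on the log2 scale for the pair of comparisons with the largest gap. The ligands and the comparisons were both picked on these same values, so the interaction test in DESeq2 adds no support to the opposite calls and its p-values are left out.

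CCL5 differed by 17.18 between PEO4 and PEA2, CXCL14 by 16.38 between OVCAR3 ResB and PEA2, and IL8 by 15.42 between PEA2 and PEO4. The gap of CXCL14 rests on a group at 0 in PEA2 and has no finite size. CXCL5 differed by 15.02 between PEA2 and OVCAR4 ResB. CCL20 and CCL28 differed by 14.74 and 7.51 between PEA2 and OVCAR3 ResA, and CX3CL1 by 7.16 between OVCAR4 ResB and OVCAR3 ResA.

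The interferon-inducible CXCL11 differed by 6.54 between PEO4 and PEA2 and CXCL10 by 5.43 between PEO6 and PEA2. CXCL1 differed by 6.49 between PEA2 and PEO4, CXCL3 by 5.24 between PEA2 and OVCAR4 ResB, and CXCL16 by 4.65 between PEA2 and PEO6. The cause of these differences was not tested.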

How the results depend on the processing

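Of 74 calls over the 10 comparisons, none reversed in any alternative fit of single genes and 13 were kept in all of those fits. The calls kept were 74 with TMM scaling, 70 with the filter of 10 counts, 70 without the replicate block, 63 in 1 fit over 33 libraries, 61 with edgeR, 52 with limma on log2(TPM + 1) and 16 with limma on log2(TPM + 0.1). Without replicate 1, 2 or 3 they were 52, 47 and 55, and 40 were kept without each. Leaving out 1 replicate gave 5 to 6 called ligands in OVCAR3 ResA, 2 to 5 in OVCAR3 ResB, 4 to 7 in OVCAR4 ResA, 3 to 7 in OVCAR4 ResB, 11 to 14 in PEA2, 4 to 5 in PEO4, 5 to 6 in PEO6, 3 to 8 in OVCAR3 ResB against ResA, 3 to 8 in OVCAR4 ResB against ResA, 2 to 4 in PEO6 against PEO4 and 0 to 1 at line level, where the fits without the OVCAR4 and without the PEO family gave 1 each. Calls over all genes moved more in some of these fits, from 292 to 6221 in OVCAR4 ResA (1784 with all replicates) and from 631 to 7241 in OVCAR4 ResB (2853). With edgeR OVCAR3 ResB had 2 called ligands, OVCAR4 ResA 3 and PEO6 against PEO4 2. With limma on log2(TPM + 1) OVCAR3 ResB had 2, OVCAR4 ResB 3, PEO4 4, PEO6 7 and PEO6 against PEO4 2. That scale moved the median of all genes by 0.44 in OVCAR4 ResA and 0.47 in OVCAR4 ResB. With limma on log2(TPM + 0.1) PEO4 had 3, and OVCAR3 ResB, OVCAR4 ResA, OVCAR4 ResB, PEO6 and the 3 comparisons of resistant lines had 0, with 10, 6, 7, 10, 8, 9 and 4 ligands at an unadjusted p under 0.05. That setting called 0 of all 29744 genes in OVCAR3 ResB, OVCAR4 ResB, OVCAR3 ResB against ResA and PEO6 against PEO4, 9 in OVCAR4 ResA, 360 in OVCAR4 ResB against ResA and 542 in PEO6, so its counts of 0 say nothing particular to the ligands. In 1 fit over 33 libraries OVCAR3 ResB had 10. CXCL3 in OVCAR4 ResB turned to 0.28 (adjusted p = 0.716) when CXCL1, CXCL2 and CXCL3 were summed, a sum that is mostly CXCL1. The causes were not tested.

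The main fits hold a replicate block. Without it 4 calls were lost: CXCL2 in PEA2 (adjusted p = 0.0877) and in OVCAR3 ResB against ResA (0.0648), and CXCL16 in OVCAR3 ResA (0.0793) and in OVCAR4 ResB against ResA (0.193). Calls were also gained without it: OVCAR3 ResB then had 6 higher and 1 lower, against 5 and 0, and OVCAR4 ResA and OVCAR4 ResB had 6 called each, against 5. In the 8 comparisons whose numbers did not pair the libraries, 0 to 3 of 6 libraries correlated best with their own number. In the 2 comparisons with paired numbers it was 4 and 5 of 6. The depth limits CCL7, CXCL11 and CXCL17, whose counts in the called pairs were low.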
